A study of Mus musculus with 8 samples.

Results

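Ribosomal proteins of the cytosol are the protein components of the ribosomes that translate nuclear-encoded mRNAs. Their genes were chosen by symbol (Rps and Rpl names, the P stalk genes Rplp0 to Rplp2, Rpsa and Rpl22l1, without pseudogenes whose names end in -ps) together with a normalised read count of at least 10 in 2 or more libraries. In the Trim28 knockout experiment 80 of 83 matching symbols passed, among 15415 tested genes and 49490 listed. In the IL-2 blockade experiment 81 of 84 passed, among 13978 tested and 55291 listed, and 80 members were shared by both. The 3 symbols below the threshold in either table were Rpl39l, Rpl3l and Rpl10l, the first with at most 6.86 in the knockout table and 9.55 in the blockade table. Just inside it lay Rps4l in the knockout table, with 4.92 and 6.86 in knockout and 17.2 and 19.3 in control libraries, and Rpl24 and Rpl6l in the blockade table, with 24.9 to 42.2.

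The RNA came from CD8+ T cells of mouse spleens and lymph nodes and was sequenced as polyA RNA in 4 groups of 2 libraries. In the first experiment, cells with floxed but intact Trim28 (the control, Trim28fl/fl, genotype WT) and cells lacking Trim28 (Trim28-/-) had both been activated in vitro. The duration of that activation and the Cre line behind the deletion are not given in the sources used here. In the second experiment, WT cells held with antibodies to CD3 and CD28 until day 3 were left untreated or given an antibody against IL-2, the growth factor that activated T cells secrete and take up. The labels speak of replicates without saying whether these were separate mice, cultures or preparations, so the p-values below describe the scatter between libraries alone, and that scatter may be technical.

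Cytosolic ribosomes consist of a small (40S) and a large (60S) subunit, and each ribosomal protein is as a rule present as 1 copy per ribosome, the P stalk proteins excepted. Ribosomal protein mRNAs are among the most abundant in growing cells. In mammals most of them carry a terminal oligopyrimidine (TOP) motif, a C at the cap followed by a run of C and T, through which mTORC1 and LARP1 govern their translation and stability. Activated T cells build ribosomes rapidly as they grow, with IL-2, mTORC1 and MYC as known inputs.

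The start-site sequences show which annotated starts carry this motif and which do not. Promoter windows from RefSeq (GRCm38.p6) were found for 59 of the members. A C at an annotated start followed by at least 4 C or T was present in 14 of these, 23.7%, against 3.01% of the 27025 genes in that table. A run of 8 or more C and T within 5 bases of a start was present in 25 of 59 (42.4%, against 11.4% of all genes). The following windows run from 20 bases before to 10 bases from the start, on the strand of the gene, with the C/T run that opens the transcript in capitals. The first 4 belong to genes that carry the run and were among the 8 deepest called falls of one experiment or both. Also among those falls, but without the run, were Rpl34 and Rpl22l1, shown last, and Rpl39, Rps16 and Rpl27a, not shown. The next 3 belong to genes that carry the run but were not called in the knockout. The last 3 belong to members without it at any listed start. These 3 do have a C/T run of 8 or more within 5 bases of the start shown. It is 9 bases long for Rps27l, 10 for Rpl22l1 and 20 for Rpl34.
Rps27, chr3:90213639-90213668, minus strand: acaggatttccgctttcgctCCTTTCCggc
Rps15a, chr7:118116138-118116167, minus strand: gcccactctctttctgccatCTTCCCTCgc
Rps6, chr4:86857358-86857387, minus strand: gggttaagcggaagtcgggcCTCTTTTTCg
Rpl38, chr11:114668560-114668589, plus strand: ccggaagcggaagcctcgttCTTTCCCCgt
Rpl28, chr7:4792945-4792974, plus strand: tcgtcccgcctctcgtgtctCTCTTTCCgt
Rpl15, chr14:18270977-18271006, minus strand: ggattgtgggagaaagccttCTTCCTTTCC
Rplp2, chr7:141447631-141447660, plus strand: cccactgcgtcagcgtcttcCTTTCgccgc
Rps27l, chr9:66946066-66946095, plus strand: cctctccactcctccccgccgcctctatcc
Rpl22l1, chr3:28805488-28805517, plus strand: cgtgcgtgcggcgcaagcccgttctcttcc
Rpl34, chr3:130730328-130730357, minus strand: ccgccccttccttttcctcttccggggacg

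Annotated starts can differ by a few bases from those used in T cells, which were not measured, so a window without the motif describes the annotation only. Of the other motifs searched on both strands of the promoter windows, the ETS-family sequence CCGGAAGT was in 12 of 59 members (20.3%, against 4.31% of all genes) and the YY1 sequence AAGATGGC in 5 (8.47%, against 3.19%). On the GENCODE annotation of GRCm38 the members lay on 19 chromosomes, and 78 of 81 were protein coding with coding lengths of 75 to 1257 bases. Rpl32l, Rpl6l and Rps4l are annotated there as processed pseudogenes. Exons of 38 members overlapped another gene, on the same strand in 27 of them and on the other strand in 19. How the counting assigned reads in the shared bases is not given, nor is its strand use.

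Depth was even, with 13222831 to 13469789 reads recovered per library in the knockout experiment and 16618750 to 17069569 in the blockade experiment. Trim28 had normalised counts of 415 and 458 in the knockout libraries against 4262 and 4323 in the controls. Il2 was lower in the knockout (log2 fold change -0.80) and Il2ra, a receptor subunit whose transcription IL-2 raises, was lower with blockade (-1.01). Summed markers of CD8 T cells were 44883 to 45428 in knockout and 38156 to 39044 in control libraries, and 59513 to 62549 in anti-IL-2 and 68238 to 68333 in untreated ones. The NK cell gene Ncr1 was at 0 throughout and the B cell gene Ms4a1 at or near 0, but other markers of their lists were present. The summed markers of other cells did not overlap between knockout and control in any of 5 lists, and with blockade they overlapped in 1 list, that of CD4 T cells. In knockout against control libraries B cell markers summed to 7.84 to 13.8 against 35.5 to 36.5, CD4 markers to 153 to 169.6 against 504.1 to 524, myeloid markers to 144 to 158 against 248 to 300.1, NK markers to 245 to 272 against 175 to 209, and erythroid and stromal markers to 1465 to 1475 against 841 to 979. In anti-IL-2 against untreated libraries the same lists gave 51.5 to 52.7 against 36.0 to 45.7 (B cell), 557 to 586 against 496 to 569.5 (CD4), 85.4 to 89.7 against 349 to 355 (myeloid), 165 to 173 against 395 to 406 (NK), and 1249 to 1306 against 1362 to 1377 (erythroid and stromal). Some sums cover opposite calls. In the knockout 1 CD4 marker was higher and 2 lower of 3 tested, and 1 NK marker was higher and 1 lower of 2 tested. With blockade 1 CD4 marker was higher and 2 lower of 3, and 2 erythroid and stromal markers were higher and 1 lower of 3. The part of other cells in the results below was not tested. In bulk RNA of this kind fewer cells of a type and less RNA per cell cannot be told apart, and total RNA per cell was not measured.

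The first comparison asked which members changed in activated cells lacking Trim28. Ribosomal protein mRNAs took 5.73% and 5.45% of all reads in the 2 control libraries and 4.69% and 4.93% in the 2 knockout libraries. Of 80 members 59 were lower in the knockout, 1 (Rpl8) was higher and 20 did not pass (limma, Benjamini-Hochberg adjusted p under 0.05 over all tested genes), where 28.2% of all tested genes were lower, 32.9% higher and 61% either. The median member fell by 17.1%, a log2 fold change of -0.27, while the median of all tested genes was 0.03. In 65 members both knockout libraries lay below both controls, in 2 they lay above and in 13 the groups overlapped, and 38.9% of all tested genes had both knockout libraries below. The groups overlapped in only 2721 of the 15415 tested genes. Separate groups, given below for single members, were thus the rule among all genes. Without knockout library 1 the count of lower members was 27, and without knockout library 2 it was 38, while the median moved between -0.32 and -0.23 over all 4 omissions.

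**Figure D1:**
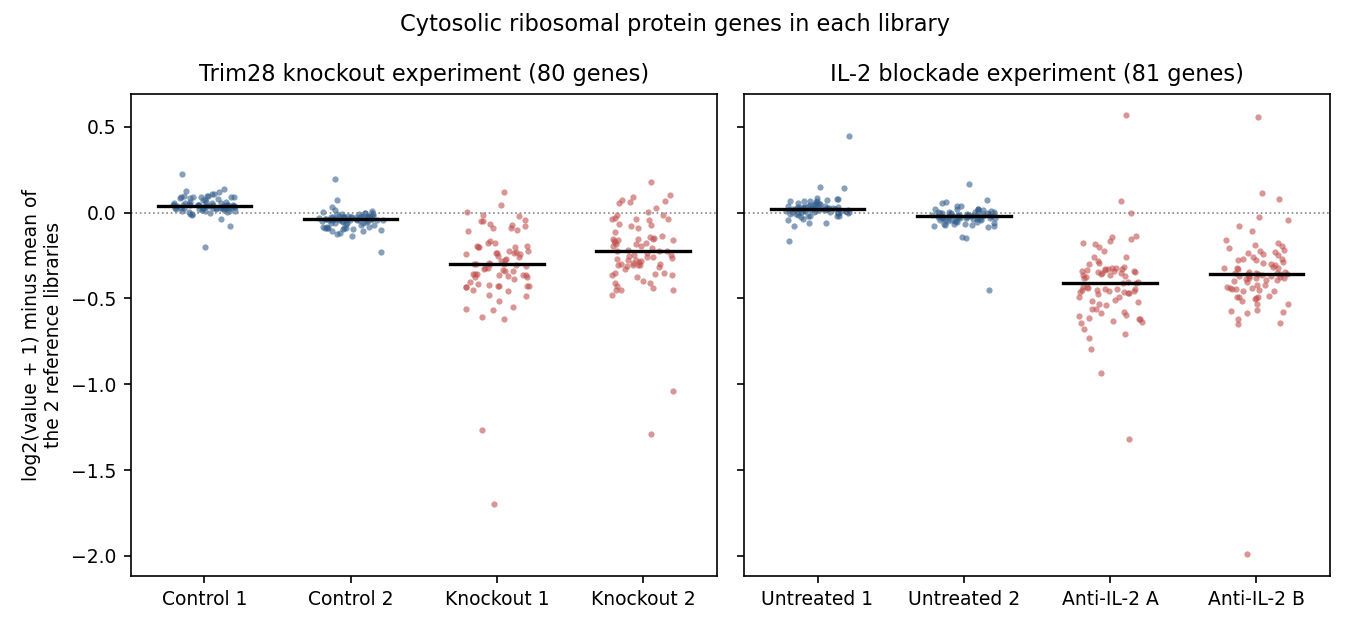
Each point is 1 ribosomal protein gene in 1 library, on a vertical axis of log2 (normalised count + 1) minus the mean of the 2 reference libraries of its experiment, with black lines at the medians. Medians lie at -0.30 and -0.23 in the knockout libraries and at -0.41 and -0.36 in the anti-IL-2 libraries, while the reference libraries sit within 0.04 of 0.

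The fall was broad and mostly shallow. Among small subunit genes 23 of 32 were lower, with a median log2 fold change of -0.29, and none was higher. Among large subunit genes 35 of 45 were lower and 1 was higher, with a median of -0.27. The P stalk, which recruits the GTPases of elongation, had 1 of 3 members lower, Rplp1 (log2 fold change -0.24, SE 0.06, limma adjusted p 0.0221). That call was lost without knockout library 1, without either control library and with no filter on low values (limma adjusted p 0.166). Rplp0 had 35331 and 36778 in the knockout against 37409.6 and 36854 in the control, and Rplp2 had 6281 and 6806 against 6201 and 6504. Neither passed, but Rplp0 was called lower with upper-quartile scaling (limma adjusted p 0.0165) and with TMM scaling (0.0438, and 0.0391 without the members). It was also called lower with edgeR (adjusted p 0.0240) and DESeq2 (0.0314) on recovered reads. With the replicate numbers crossed, an alternative chosen after seeing the data, it passed too (limma adjusted p 0.0427).

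Rpl34, a protein of the large subunit, had the largest fall among well-expressed members. Control libraries held 6550.2 and 6027, those without Trim28 only 2609 and 3057. Its log2 fold change of -1.15 (SE 0.08, limma adjusted p 1.09e-04) compares with -0.53 for the next of these members. Copies of this gene moved the other way. The pseudogene Rpl34-ps2 rose from 120 and 123 to 439 and 515 (log2 fold change 1.96, SE 0.09, limma adjusted p 2.74e-05), and Rpl34-ps1 rose from 1034 and 986 to 1123 and 1311 (0.26, SE 0.08, limma adjusted p 0.0258). When Rpl34 and both pseudogenes were summed, an alternative chosen after seeing the data, the log2 fold change was -0.72 (limma adjusted p 5.81e-04). How the counting divided reads between such near-identical copies is not given, so the value of Rpl34 is uncertain.

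Rps4l, a retrocopy of Rps4x, fell by 1.49 on the log2 scale from 17.2 and 19.3 to 4.92 and 6.86, at counts near the threshold (limma adjusted p 0.00416; DESeq2 on recovered reads did not call it, adjusted p 0.122). Its parent Rps4x, at 16280.2 and 15794 in the controls, fell to 12910.0 and 12940 (log2 fold change -0.31, SE 0.02, limma adjusted p 1.70e-04). The groups did not overlap for either gene.

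Behind these came several members with log2 fold changes between -0.53 and -0.48. Rps27, a zinc-finger protein of the small subunit, went from 6579 and 5522 to 3953 and 4413 (log2 fold change -0.53, SE 0.09, limma adjusted p 0.00357). Rps15a went from 5519.7 and 5329 to 3802 and 3995 (-0.48, SE 0.04). Rps16 (-0.49) and Rpl39 (-0.51), which lines the peptide exit tunnel, were also lower. The groups were apart in all 4 genes, but with a single knockout library left, either one, Rps27 and Rpl39 no longer passed. Nor did Rps16 without control library 1. With no filter on low values Rps27 (limma adjusted p 0.0714) and Rps16 (0.0654) did not pass either.

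Rpl8, which binds near the peptidyl transferase centre, was the member that rose. It had 18512 and 17267 in the controls and 19443 and 20231 in the knockout (log2 fold change 0.15, SE 0.04, limma adjusted p 0.0186). The groups did not overlap, and the call was lost without either knockout library, without control library 2, with upper-quartile scaling and with no filter on low values (limma adjusted p 0.130). Rps2, at the mRNA entry site of the small subunit, also had both knockout libraries (9030.1 and 9203) above the controls (8900.3 and 8592) but did not pass (log2 fold change 0.06, limma adjusted p 0.109). Rpl15 (-0.03) was among the members nearest to no change.

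The second comparison asked what blocking IL-2 did to the same genes after stimulation through CD3 and CD28. Members took 3.68% and 3.65% of reads in untreated and 2.86% and 3.02% in anti-IL-2 libraries. Of 81 members 72 were lower, 1 (Rps27l) was higher and 8 did not pass, where 28.9% of all tested genes were lower, 31.4% higher and 60.3% either (limma, Benjamini-Hochberg adjusted p under 0.05). The median member fell by 23.7%, a log2 fold change of -0.39, against a median of 0.02 over all tested genes. In 76 members both anti-IL-2 libraries lay below both untreated ones, in 1 above and in 4 the groups overlapped, with 38.2% of all tested genes below. Here too the groups overlapped in only 2890 of the 13978 tested genes. Leaving out 1 library at a time gave 61 to 75 lower members.

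Both subunits took part. Of the small subunit 27 of 32 members were lower and 1 higher (median log2 fold change -0.38), and of the large subunit 42 of 46 were lower (median -0.40). All 3 P stalk genes fell by 0.28 on the log2 scale. Rplp0 went from 34793 and 35161 to 27737 and 29762, Rplp1 from 12961 and 12944 to 10331 and 11085, and Rplp2 from 8185 and 7709.7 to 6486 and 6579. The groups did not overlap for any of them, though Rplp0 no longer passed without either untreated library.

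Rpl23a, which sits at the exit of the peptide tunnel, had the deepest fall, from 674 and 648 to 264 and 166 (log2 fold change -1.65, SE 0.14, limma adjusted p 5.35e-09). Its anti-IL-2 libraries lay further from each other on the log2 scale (0.67) than those of any other member. The level of Rpl23a in the untreated cells was low for a ribosomal protein gene, as described further on. Rpl17 fell from 1538 and 1402 to 768 and 942 (-0.79, SE 0.08). Rpl27a (-0.65), Rpl38 (-0.65), a protein known for its role in the translation of Hox mRNAs, and Rps27 (-0.65) followed, each with separate groups.

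Rps6, the small subunit protein phosphorylated by S6 kinases downstream of mTORC1, fell from 7969 and 7992 to 5206 and 5512 (log2 fold change -0.57, SE 0.05, limma adjusted p 7.51e-09). Rps15a fell from 5201 and 5024 to 3284 and 3441 (-0.60, SE 0.05). For both genes the untreated libraries lay closer to each other than to either treated one.

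Rps27l was the exception. This paralogue of Rps27, known as a p53-inducible gene, rose from 762 and 755 to 1124 and 1114 (log2 fold change 0.56, SE 0.06, limma adjusted p 3.04e-07), an increase of 47.5%. Rps27 itself fell from 7239.6 and 6886 to 4419.9 and 4592 in the same libraries (-0.65, SE 0.05, limma adjusted p 1.65e-09). Rps27 nevertheless had the higher count of the pair in all 4 libraries.

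**Figure D2:**
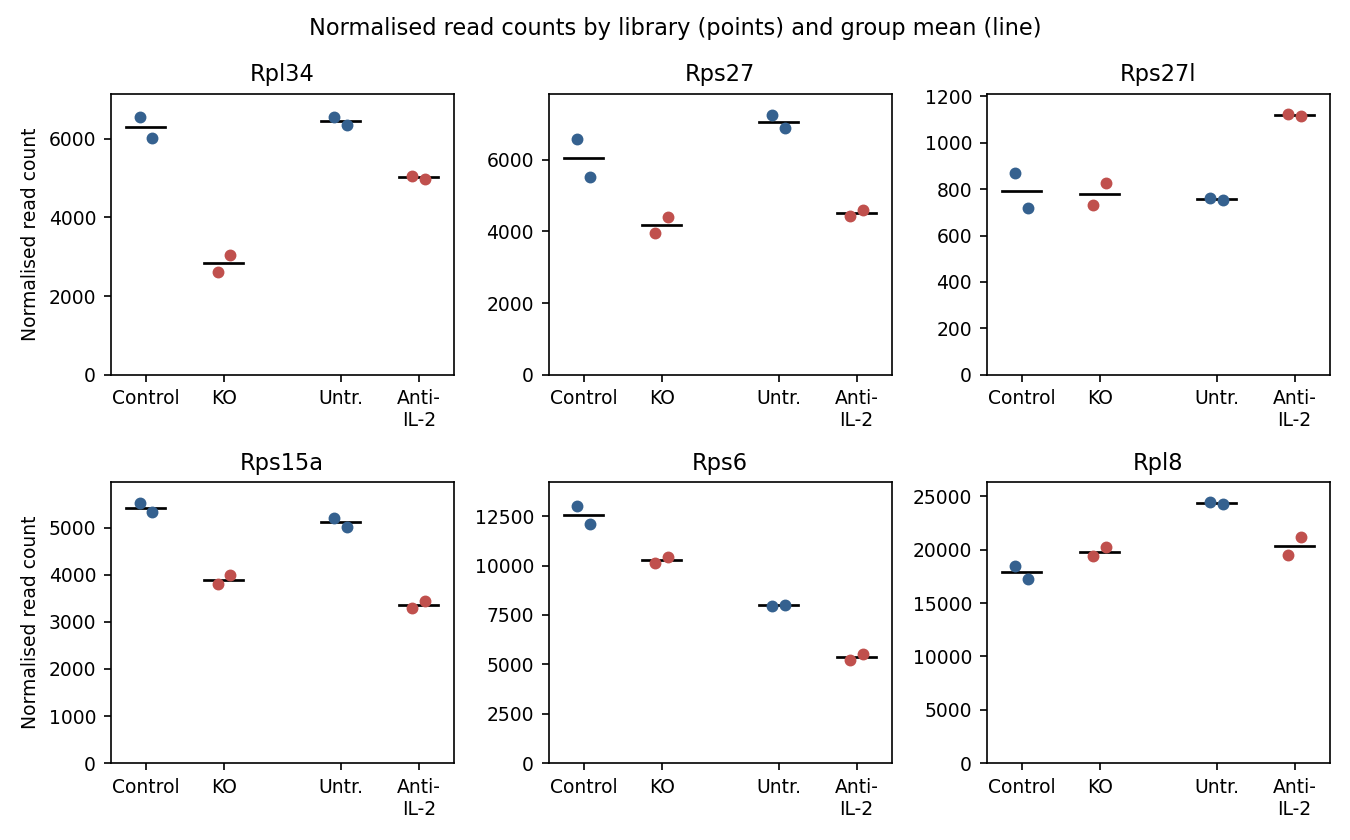
Normalised read counts of 6 ribosomal protein genes, with 1 point per library and a line at the group mean, on axes that start at 0. Rpl34 is lowest in the knockout libraries (2609 and 3057), Rps27 is lower in both treated groups, and Rps27l is higher with anti-IL-2 (1124 and 1114).

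Rpl22, whose loss is known to block the development of alpha-beta T cells, fell from 7876 and 7557 to 5764 and 6020.0 in the knockout (log2 fold change -0.39, SE 0.03) and from 8572 and 8267 to 6358 and 6521 with blockade (-0.39, SE 0.05). Its paralogue Rpl22l1 fell from 1057 and 1079.6 to 764 and 780.3 in the knockout (-0.47, SE 0.04) and from 545 and 494 to 409.5 and 366 with blockade (-0.42, SE 0.09). Rpl22l1 was thus lower together with Rpl22 in both experiments. Rpl3 was lower in both (-0.36 and -0.29), while its muscle paralogue Rpl3l was at 0 or 1.03 in all libraries. Rpl10 did not pass in the knockout (-0.12, limma adjusted p 0.127) and was lower with blockade (-0.18, limma adjusted p 0.00305). It passed as lower in the knockout with upper-quartile scaling (limma adjusted p 0.0358) and with DESeq2 (adjusted p 0.0436). With the replicate numbers crossed, the alternative chosen after seeing the data, it passed too (limma adjusted p 0.00477). The blockade call of Rpl10 was lost without either untreated library and with scaling to the library total (limma adjusted p 0.0572). Rpl39 was lower in both (-0.51 and -0.30), and its blockade call was lost without untreated library 1 (limma adjusted p 0.0688) and with no filter (0.0808).

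Several members have known second roles. Rps27a, made as a fusion with ubiquitin, was lower in the knockout (log2 fold change -0.38) and with blockade (-0.22). The knockout call was lost without knockout library 1 (limma adjusted p 0.0540) and with no filter (0.0510), and the blockade call without either untreated library, with no filter (0.0998) and with scaling to the library total (0.0517). Rpl5 and Rpl11, which with 5S ribosomal RNA bind MDM2, were at -0.33 and -0.27 in the knockout and at -0.46 and -0.51 with blockade, and all 4 values passed. Rpsa, also described as a laminin receptor, was lower in both (-0.20 and -0.33). Of 18 members whose human counterparts carry Diamond-Blackfan anaemia mutations, 12 were lower in the knockout and 15 with blockade, none higher in either, with medians of -0.24 and -0.40 beside -0.27 and -0.39 over all members.

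Set side by side, 56 of 80 members were lower in both experiments, which share no libraries. Of all tested genes 28.2% were lower in the knockout and 28.9% with blockade. The share of all genes lower in both, or in 1 alone, was not computed, so these counts have no such background beside them. Rpl24, Rpl6l and Rps4l were called lower in the knockout but not with blockade, and the difference between their effects passed in 0 of the 3 (limma in a joint fit of both experiments, described next). Rps4l was called lower with blockade under a pseudocount of 10 (limma adjusted p 0.0365), with edgeR (0.0340), without anti-IL-2 library A (0.0402) and without untreated library 2 (0.00385). The reverse held for 15, and 10 of these passed the test of the difference. Among the 15 were Rpl10, Rpl14, Rpl27, Rpl28, Rpl29, Rpl31, Rpl36, Rpl41, Rplp0, Rplp2, Rps2, Rps9, Rps13 and Rps26. A further 4, Rpl15 and Rps29 among them, passed in neither. Over the 80 genes the log2 fold changes of the 2 experiments had a Pearson correlation of 0.38 and a Spearman correlation of 0.56, given as a description, since genes of 1 library share its depth and scaling. The log2 fold change was lower with blockade in 66 of 80 members, and in 6883 of the 12428 genes tested in both.

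Whether the effects differed was tested over 12428 genes in a joint fit of all 8 libraries. The knockout effect was higher than the blockade effect for 26 of 80 members and lower for 2, where 24.7% of all tested genes were higher, 17% lower and 41.7% either (limma, Benjamini-Hochberg adjusted p under 0.05). The median difference was 0.13 for members and 0.05 for all tested genes. The 26 members are 32.5% of 80, not far above the background share. The count of higher members fell to 16 without knockout library 2, without control library 2 or without untreated library 1, and the count of lower ones rose to 4 without control library 2 and to 5 without the anti-IL-2 library named B here.

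Single members stood apart in this test. Rpl34 fell more in the knockout (difference -0.79, SE 0.09, limma adjusted p 1.68e-05), having gone from 6548 and 6356 to 5046 and 4989 with blockade (-0.36, SE 0.05). Rps27l, with 869 and 718 in control and 734 and 826 in knockout libraries, overlapped between those groups (difference -0.58, SE 0.11, limma adjusted p 0.00144). Rpl8 rose slightly in the knockout but fell with blockade from 24499 and 24243 to 19477 and 21168 (difference 0.41, SE 0.07, limma adjusted p 3.20e-04). Rpl28 (difference 0.45), Rpl17 (0.42), Rps2 (0.36) and Rpl23a (1.20) had lower log2 fold changes with blockade than in the knockout. For Rpl28 the counts went from 5427 and 5251 to 3530.2 and 3979.9 with blockade, against 6765 and 6379 in control and 6185 and 6405 in knockout libraries.

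**Figure D3:**
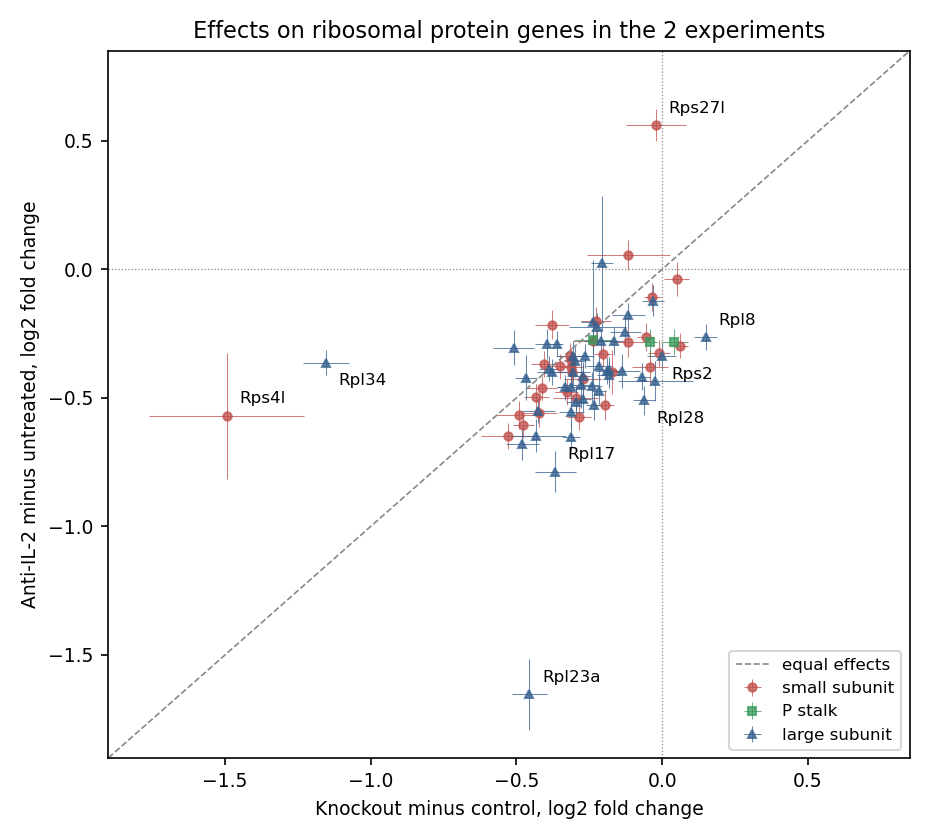
Each symbol is 1 ribosomal protein gene, with its log2 fold change in the knockout on the horizontal axis, that with anti-IL-2 on the vertical axis, bars of 1 standard error and a dashed line of equal effects. Of 80 genes 66 lie on the side of the lower log2 fold change with anti-IL-2, and Rpl34 (-1.15 and -0.36), Rpl23a (-0.46 and -1.65) and Rps27l (-0.02 and 0.56) lie far from the line.

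Levels were compared per length, as RPKM computed on coding length, a scale that ignores UTRs and so favours the shortest genes. In control cells it ran from 207 to 8421 with a median of 1208. Rpl41, whose coding sequence is the 75 bases named above, was highest (8421), followed by Rpl13a (3263) and Rplp1 (3241), whose libraries overlapped. Rpl21 (207), Rpl22l1 (217) and Rps27l (235) were lowest, with overlapping libraries. In untreated cells Rpl41 (2918) and Rpl4 (2824) led, again with overlapping libraries, then Rps26 (2378).

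Fold changes were only loosely related to these features. Across the 78 members with a coding length the Spearman correlation of log2 fold change with coding length was 0.19 in the knockout and -0.01 with blockade, and with level it was -0.16 in both. Members under 400 coding bases had medians of -0.31 and -0.38, those of 600 bases and over -0.23 and -0.35. Other genes with coding sequences under 600 bases had medians of 0.05 and 0.00, and other genes with a mean count of at least 1000 had 0.04 and 0.03. These classes were taken separately, and none was matched to the members in both length and abundance. The part of length and abundance was not tested. Members with the C/T run at their start had a median of -0.27 in the knockout (9 of 13 lower) and -0.47 with blockade (12 of 14 lower). Those without it had -0.24 (35 of 45 lower) and -0.38 (43 of 45 lower). The class without it includes members with a long C/T run near the start, such as Rpl34 (20 bases).

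The 2 tables treated ribosomal protein pseudogenes differently, which bears on member levels. Genes named as ribosomal protein pseudogenes took 1.65% to 1.73% of reads in control and 1.43% to 1.5% in knockout libraries. They took 0.0590% and 0.0600% in untreated and 0.0492% and 0.0493% in anti-IL-2 libraries. For the median member with such copies, their summed count was 46.5% of its own in control cells and 0.831% in untreated cells. It was above 50% for 29 of 59 such members in control cells and for 0 of 62 in untreated cells. As for Rpl34, how the counting divided reads between these members and their copies is not given. Of 209 tested pseudogenes 129 were lower (61.7%, against 28.2% of all tested genes) and 4 higher in the knockout. Their median log2 fold change was -0.29, close to that of the members. With blockade 23 of 72 were lower, none was higher and 49 did not pass (median -0.30). That is 31.9% lower, near the 28.9% of all tested genes.

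Nearly all members took a larger share of reads in control than in untreated cells, most by less than 2-fold. The ratio of CPM (counts as a share of the library) in control over untreated cells had a median of 1.57, and 56 of 80 members were within 2-fold. It was below 1 only for Rpl8 (0.94) and Rps4l (0.36). It was above 5 for 5 members: Rpl24 (380-fold, from 582 in control to 1.53 in untreated), Rpl6l (129-fold), Rps10 (22.4-fold), Rpl13a (18.2-fold) and Rpl23a (8.46-fold). Cells and conditions also differed between the tables, and the cause was not tested. Without these 5 members, another choice made after seeing the data, 54 of 75 were lower in the knockout and 69 of 76 with blockade, with medians of -0.27 and -0.39.

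A list of ribosomal protein genes and copies whose symbols fall outside the rule mostly moved with the members. Of 10 such genes 9 were lower and 1 higher in the knockout and 7 lower with blockade. The list names the pseudogenes Rpl13a-ps1 and Rpl9-ps6, so it is not made up of protein-coding genes alone. Rpl13a-ps1, also counted among the pseudogenes above, was at -0.31 in the knockout (limma adjusted p 0.00467) and at -0.25 with blockade (0.526). Fau, which encodes the small subunit protein eS30 as a fusion, fell from 9169 and 8306 to 6551 and 7067 in the knockout (log2 fold change -0.36, SE 0.06) and from 6471 and 5963 to 3406 and 3675 with blockade (-0.81, SE 0.06). Rack1, a scaffold on the small subunit, was at -0.18 and -0.40, and Rps27rt, a retrocopy, at -0.51 and -0.96. The gene that was higher in the knockout was Rpl7l1, a relative of Rpl7 known from ribosome assembly (0.15), named here after its value was seen.

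Other genes with TOP mRNAs were more often lower than higher. Of 19, a list that repeats Fau and Rack1, 11 were lower and 3 higher in the knockout (median -0.14). With blockade 13 were lower and 2 higher (median -0.26). The lower shares were 57.9% and 68.4%, against 28.2% and 28.9% of all tested genes. The higher shares were 15.8% and 10.5%, against 32.9% and 31.4%. Eef1a1, the elongation factor that delivers aminoacyl-tRNA, went from 94738 and 94760.1 to 79264 and 80776 in the knockout (-0.24, SE 0.02) and from 78973 and 77325 to 48268 and 49194 with blockade (-0.68, SE 0.05). Eif3h passed with blockade (-0.44) and not in the knockout (-0.04), and Npm1, a nucleolar chaperone, in the knockout (-0.27) and not with blockade (-0.06). The difference between the effects passed for both (0.40, limma adjusted p 5.09e-05, and -0.21, limma adjusted p 0.0186).

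The remaining lists of the translation machinery, which share some genes with the TOP list, did not share the fall as lists. Of 10 elongation factors 2 were lower and 6 higher in the knockout (median 0.23), and 3 lower and 4 higher with blockade. Eif5a, the hypusinated factor, rose from 13975 and 13472 to 20179 and 20632 in the knockout (0.57, SE 0.03), and Eef2k, the kinase that inhibits Eef2, rose in both (0.83 and 1.10). Of 38 initiation factors 10 were lower and 18 higher in the knockout, and 9 and 10 with blockade, with Eif4e3 lowest in each (-0.71 and -1.39). Of 14 factors of nascent chains and the stalk 6 were lower and 6 higher in the knockout, and 4 and 5 with blockade. Of 14 import and assembly chaperones of ribosomal proteins 2 were lower and 8 higher in the knockout, and 2 and 7 with blockade, with Ipo9, an importin for ribosomal proteins, higher in both (0.58 and 0.70).

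Genes that govern TOP translation moved in both directions. Of the mTORC1 and TOP control list 4 of 23 were lower and 9 higher in the knockout, and 4 of 24 lower and 8 higher with blockade. Rragd, a Rag GTPase of the amino acid branch, fell from 536.3 and 537 to 79.2 and 69.0 with blockade (-2.84, SE 0.11) and from 442 and 435 to 324 and 327 in the knockout (-0.43, SE 0.05). Tsc2, which restrains mTORC1, was higher in both (0.51 and 0.32). Myc, a known activator of ribosomal protein genes, was at 15441 and 15894 in control and 15652 and 15298 in knockout libraries, which overlapped (-0.02, limma adjusted p 0.575). It fell with blockade from 35198 and 35265 to 19498 and 21057 (-0.80, SE 0.05).

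The ribosomal proteins of mitochondria, encoded by other nuclear genes, went the opposite way. Of 78 tested, 51 were higher and 5 lower in the knockout (median 0.27). With blockade 35 of 77 were higher and 4 lower (median 0.13). Cytosolic and mitochondrial ribosomal protein mRNAs therefore had medians of opposite sign in both experiments, each list beside an all-gene median within 0.04 of 0. Reads of mitochondrially encoded genes took 2.11% and 2.03% in control and 1.52% in both knockout libraries, and 2.72% and 2.69% in untreated and 2.40% and 2.53% in anti-IL-2 libraries.

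**Figure D4:**
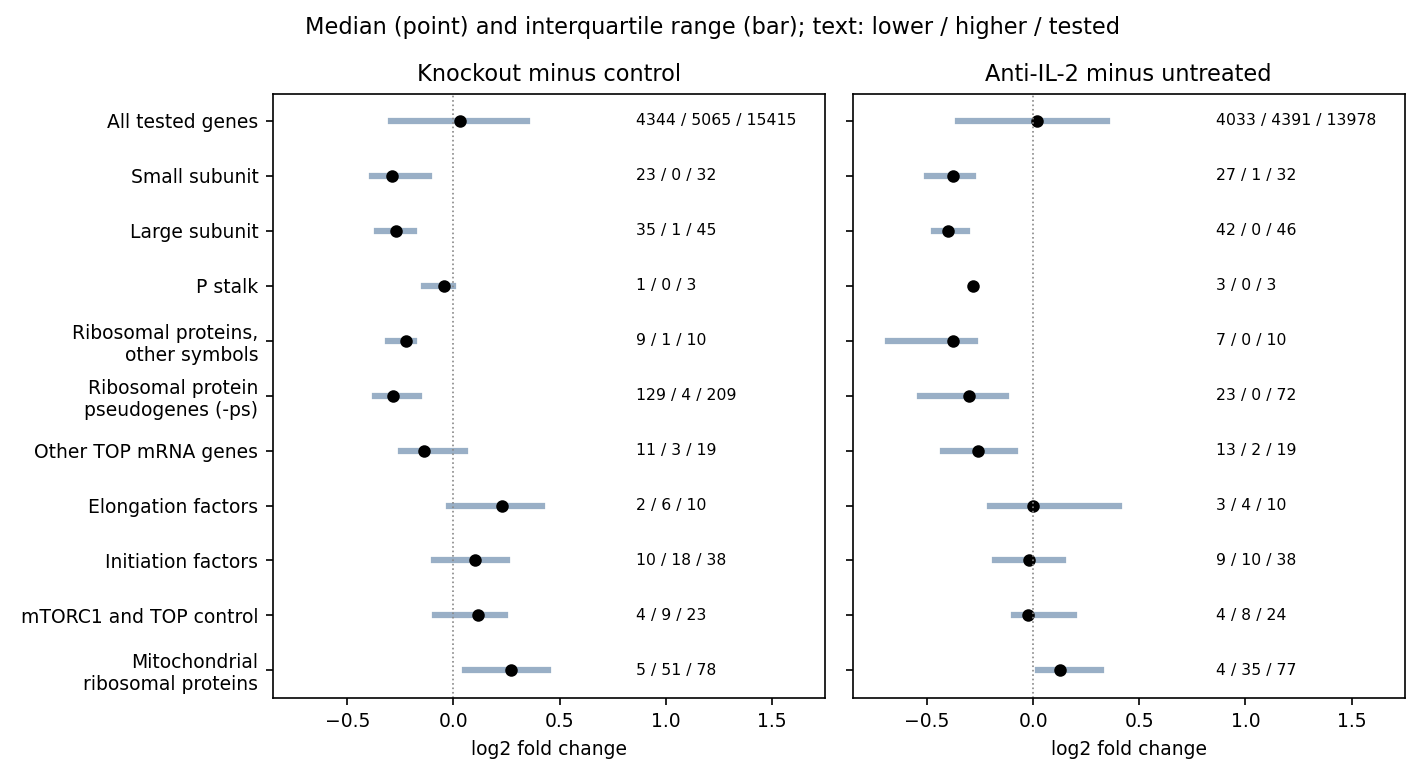
Median log2 fold change (points) and interquartile range (bars) of gene lists, with the number lower, higher and tested at the right of each panel. Small subunit genes (23, 0 and 32 in the knockout; 27, 1 and 32 with anti-IL-2) lie left of 0 in both panels and mitochondrial ribosomal proteins (5, 51 and 78; 4, 35 and 77) lie right of it.

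In the authors' deposited table, which uses DESeq2, 57 were lower and 1 higher of 80 matching symbols with an adjusted p in the knockout. In the authors' deposited table for the blockade 72 were lower and 1 higher of 82 matching symbols with an adjusted p, which is more than the 81 members because Rpl39l, below the threshold used here, has one there.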

How the data were processed

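PolyA RNA of CD8+ T cells was sequenced in 8 libraries, 2 in each of 4 groups. The submitters' processing notes name mm10 as the build and, as tools of the authors, DESeq2, StringTie 2.1.4, HISAT2 2.2.1 and Trim Galore 0.4.4. The counter, annotation and filters are not given in the sources used here. The deposited signal per gene and library is a read count divided by a size factor. The deposited log2 fold changes (coded reference over treated) and adjusted p-values of the authors were used only for the last comparison of calls. All values were whole multiples, within 0.001, of what 1 read is worth in their library, so read counts could be recovered.

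Values were tested as log2 (value + 1), which understates changes of low genes, with limma 3.58.1 (mean-variance trend, no block) in R 4.3.3. Tested genes had 10 or more in 2 or more libraries. P-values were adjusted by Benjamini-Hochberg over all tested genes. Separate fits served the experiments, and a joint one of 8 libraries the comparison of their effects. edgeR 4.0.16 and DESeq2 1.42.0 on the recovered counts were alternatives, with other pseudocounts, filters and scalings and with each library left out. The scripts were tested on simulated data. Reads are without molecular identifiers, so depth says only how precise counting is.

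Named genes were the 8 called members with the largest change per direction, all members of the stalk, paralogue, ubiquitin fusion and MDM2-binding groups and Rpsa, the 3 highest and 3 lowest by level, up to 3 genes per pathway list by adjusted p, up to 5 per direction in the difference, and Trim28, Il2, Il2ra and Myc. Others are named to list calls or after their values were seen. Some genes that this rule names are not reported here. Members and lists were chosen with earlier results of these data known. Replicates within a group differed by more than counting noise (chi-square per degree of freedom 1.32 to 3.87).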

Additional observations from a re-analysis of the deposited data

Results flagged for a closer look

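The effects of the 2 experiments on single ribosomal protein genes were compared in the joint test of all 8 libraries (knockout effect minus anti-IL-2 effect, limma, adjusted p under 0.05). The difference passed the test as positive for 26 of 80 members and as negative for 2, beside 24.7% and 17% of all tested genes, 41.7% in either direction. Members with the largest positive differences were Rpl23a (1.20), Rpl28 (0.45), Rpl17 (0.42), Rpl8 (0.41) and Rps2 (0.36), of which Rpl8 rose in the knockout and fell with blockade. Rpl34 (-0.79) and Rps27l (-0.58) had negative differences. For Rpl17 the call was lost with no filter on low values (limma adjusted p 0.0598). It was also lost without knockout library 2, control library 2, anti-IL-2 library A or untreated library 1. Rpl23a was also 8.46 times lower in CPM in untreated than in control cells. Pseudogenes named after it had 89.8% of its count in control cells and 3.52% in untreated cells. Those named after Rpl17 had 330% and 6.86%, and those named after Rpl28 81.1% and 6.35%. Those named after Rps2 had 74.9% and 0.905%, and those named after Rpl34 18.0% and 0.160%. The part of such copies in these differences was not tested.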

How the results depend on the processing

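Over the alternatives the median of members kept its sign in each comparison. The count of lower members in the knockout, 59, was 39 with no filter and 27 to 57 when 1 library was left out; the count of higher members was 0 with no filter or upper-quartile scaling, 2 with library-total scaling and 0 to 1 with a library left out. The knockout median was -0.34 with upper-quartile scaling and -0.32 to -0.23 with a library left out. For blockade the median was -0.31 with library-total scaling and -0.41 to -0.35 with a library left out, where lower members numbered 61 to 75 and higher ones 1 to 2. For the difference of effects, higher members numbered 17 with no filter and 16 to 35 with a library left out, lower members 4 with library-total scaling and 2 to 5 with a library left out, and the median was 0.08 to 0.18. Among named members the sign changed for 2 uncalled knockout values: Rplp2 (-0.027 with upper-quartile scaling, -0.016 to 0.10 with a library left out) and Rps27l (0.0037 with library-total scaling, -0.16 to 0.12 with a library left out). The cause of these shifts was not tested beyond the loss of a library.

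Same-numbered control and knockout libraries did not deviate together (correlation 0.01 over all tested genes), so the numbers are not treated as pairs; with the replicate block 59 members were lower and 1 higher. With the numbers crossed, since the correlation was -0.25 among genes with a mean of 100 or more, 68 were lower and 2 higher. No paired analysis was possible for the blockade because its anti-IL-2 columns carry no replicate number. With 2 libraries per group, small changes in single members were not resolvable, and where 1 library was left in a group it was assumed to vary like the others.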
